A study of Mus musculus with 9 samples.

Results

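The mouse mitochondrial genome was represented by 13 rows on chrMT among 35275 rows of the gene count table, chosen by their chromosome alone, and all 13 were protein-coding genes. Mitochondrial rRNA and tRNA were not analysed here. Poly-A RNA had been sequenced from the gastrocnemius, a calf muscle, of female NSG mice, an immunodeficient strain labelled wild type in genotype and 12 weeks of age. In 5 libraries the mice had received extracellular vesicles (EVs), which are small membrane-enclosed particles shed by cells, from MDA-MB-231 human breast cancer cells. In 4 libraries the EVs came from MCF-10A, a non-tumorigenic human breast epithelial line. Both groups were injected through the tail vein with about 10 µg of EVs 2 times per week for 5 weeks, 10 injections in all, and the calf was sampled 2 days later. The comparison asks which muscle transcripts differ between the EV types, and no group without EVs was compared. Each numbered library was taken as 1 mouse.

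Mitochondrial DNA is a small circle whose protein-coding genes all encode subunits of the respiratory chain and of ATP synthase, the machines that make most of a resting muscle's ATP. Both strands are transcribed into long precursors, in which tRNAs stand between most of the mRNAs and are cut out to free them, and most mRNAs then receive a short poly-A tail. Oxidative muscle fibres hold more mitochondria than fast glycolytic fibres, which make up most of the gastrocnemius.

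The 13 genes had the same start, end and strand in the deposited table as in GENCODE M21 (GRCm38, the mm10 build). Of these, 12 are read from the plus strand and mt-Nd6 alone from the minus strand. Neighbouring genes overlap in places, which bears on how their reads can be told apart. The last 43 bases of mt-Atp8 are also the first 43 bases of mt-Atp6, since both proteins are read from 1 mRNA in different frames (chrMT:7927-7969, plus strand). In the stretch below, the first capitals mark the start codon of mt-Atp6 and the last capitals the stop codon of mt-Atp8.

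mt-Atp8 and mt-Atp6: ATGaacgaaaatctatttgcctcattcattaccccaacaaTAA

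The genes mt-Nd5 and mt-Nd6 lie on opposite strands and meet tail to tail over 14 bases (chrMT:13552-13565), with the stop codons in capitals.

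mt-Nd5, plus strand: ttaatctcgagTAA
mt-Nd6, minus strand: ttactcgagatTAA

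A stretch of chromosome 1 holds pseudogenes that copy part of the mitochondrial genome, and a read from an identical stretch cannot be assigned to either place by its sequence. The sequences below, from GENCODE M21 transcripts, show an identical copy, a copy that differs at 1 base and a diverged copy, with differing bases in capitals and each sequence given 5′ to 3′ in the sense of the mitochondrial gene. The mt-Nd4l stretch (chrMT:9877-9936, plus strand) and its copy Gm10222 (chr1:24612641-24612700, minus strand) had 0 differences over the 294 bases aligned.

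mt-Nd4l: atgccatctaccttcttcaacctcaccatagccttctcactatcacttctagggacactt
Gm10222: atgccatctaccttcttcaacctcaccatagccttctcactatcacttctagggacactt

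The copy of mt-Nd3 (chrMT:9459-9518, plus strand) in Gm28438 (chr1:24613060-24613119, minus strand) differed at 1 of 345 aligned bases, T3C counted from the first base of the gene, which lies in the start codon.

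mt-Nd3: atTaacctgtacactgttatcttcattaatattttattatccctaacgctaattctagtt
Gm28438: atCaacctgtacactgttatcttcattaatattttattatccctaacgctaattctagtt

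By contrast, the copy of mt-Cytb (chrMT:14146-14205, plus strand) in Gm11410 on chromosome 4 (chr4:80003990-80004049, plus strand) differed at 81 of 1142 aligned bases, 3 of them in the stretch shown.

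mt-Cytb: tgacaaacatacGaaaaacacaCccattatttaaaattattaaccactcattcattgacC
Gm11410: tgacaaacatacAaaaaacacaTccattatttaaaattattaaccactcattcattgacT

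Total counts ranged from 19463570 to 24158088 per library in MDA-MB-231 EV and from 13943465 to 25195826 in MCF-10A EV, and chrMT held 1396854 to 2383695 of them in MDA-MB-231 EV and 901336 to 2090417 in MCF-10A EV. Defining transcripts of skeletal muscle were abundant in all 9 libraries, with a summed level over 10 markers of 135319 to 166422 CPM (counts relative to the library total, here unscaled) in MDA-MB-231 EV and 174575 to 207619 in MCF-10A EV. Summed markers of endothelium were at 603 to 726 CPM in MDA-MB-231 EV and 411 to 519 CPM in MCF-10A EV, and those of fibroblasts at 6130 to 9442 CPM in MDA-MB-231 EV and 3703 to 6804 CPM in MCF-10A EV. In bulk muscle, fewer cells of a type and less RNA per cell cannot be told apart.

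MCF-10A EV replicate 2 stood apart in the makeup of its mitochondrial counts, so several results are given with and without it. Of its chrMT counts 21.7% fell on mt-Nd5, against 8.61% to 10.5% in the MDA-MB-231 EV libraries and 10.0% to 10.7% in the rest of its group. Its mt-Nd6 took 4.05%, against 1.85% to 2.16% in MDA-MB-231 EV and 2.05% to 2.38% in the others of its group. In that library mt-Cytb took 10.2%, against 16.4% to 17.9% in MDA-MB-231 EV and 16.8% to 17.7% in MCF-10A EV replicates 1, 3 and 4. Its mt-Co1 took 26.3%, against 36.3% to 39.2% in MDA-MB-231 EV and 34.8% to 38.3% in the same MCF-10A EV replicates. The ratio of mt-Nd5 to mt-Cytb counts was thus 2.12 there, and 0.498 to 0.639 in MDA-MB-231 EV and 0.566 to 0.637 in the rest of MCF-10A EV. This library was also the smallest, and the mean log2 CPM of nuclear complex IV subunits, at 7.11, lay below the 7.82 to 8.17 of MDA-MB-231 EV and the 7.69 to 8.15 of the rest of MCF-10A EV. Values without this library stand beside several of the results that it moves, though not beside all of them.

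**Figure D1:**
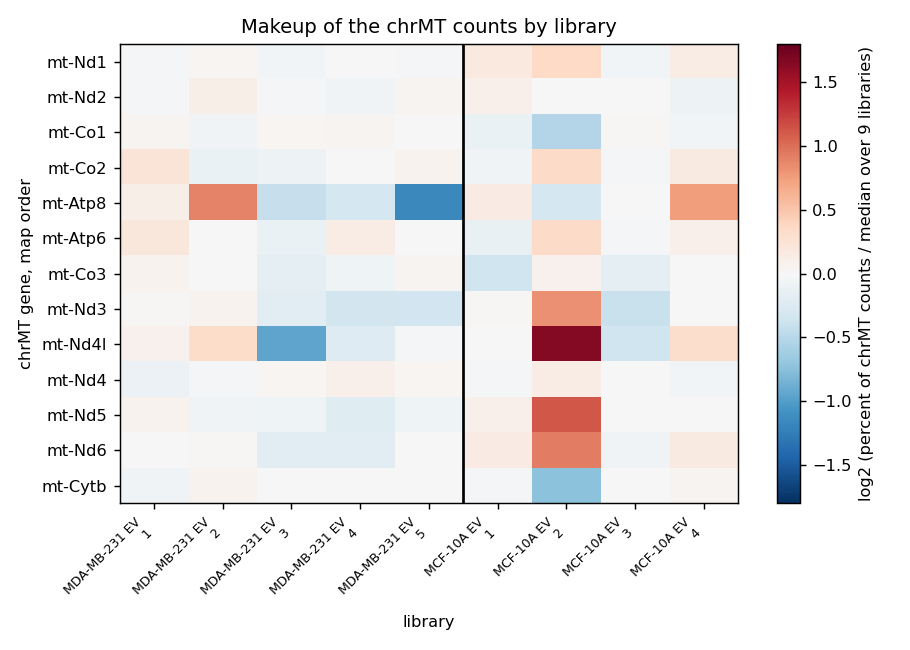
Makeup of the chrMT counts: rows are the 13 genes in map order, columns are the 9 libraries (MDA-MB-231 EV left of the line, MCF-10A EV right), and colour is the log2 of each gene's percent of chrMT counts over its median across libraries. MCF-10A EV replicate 2 is high for mt-Nd4l, mt-Nd5, mt-Nd6 and mt-Nd3 and low for mt-Cytb and mt-Co1, and the variation of mt-Atp8 rests on 9 to 47 counts.

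Mitochondrial mRNAs took a large share of all counted reads, and the groups overlapped in it. The share of all gene counts on chrMT was 9.87%, 10.2%, 9.91%, 7.10% and 7.98% in MDA-MB-231 EV replicates 1 to 5, and 7.62%, 6.46%, 8.30% and 6.87% in MCF-10A EV replicates 1 to 4. MDA-MB-231 EV replicates 1 to 3 lay above every MCF-10A EV library, and its replicates 4 and 5 lay within the MCF-10A EV range. The mean share was 9.01% ± 1.39 in MDA-MB-231 EV (SD, n = 5) and 7.31% ± 0.813 in MCF-10A EV (SD, n = 4). The log2 ratio of these means was 0.30, or 0.25 when MCF-10A EV replicate 2 was left out. These shares use unscaled counts, and 20 nuclear genes alone held 25.2% to 29.1% of the counts in MDA-MB-231 EV and 29.8% to 35.3% in MCF-10A EV, which do not overlap. With those 20 genes left out of the total the log2 ratio was 0.20. Exact (Clopper-Pearson) 95% intervals were narrow, from 6.45% to 6.48% for the lowest share and from 10.19% to 10.22% for the highest, and cover counting error only.

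**Figure D2:**
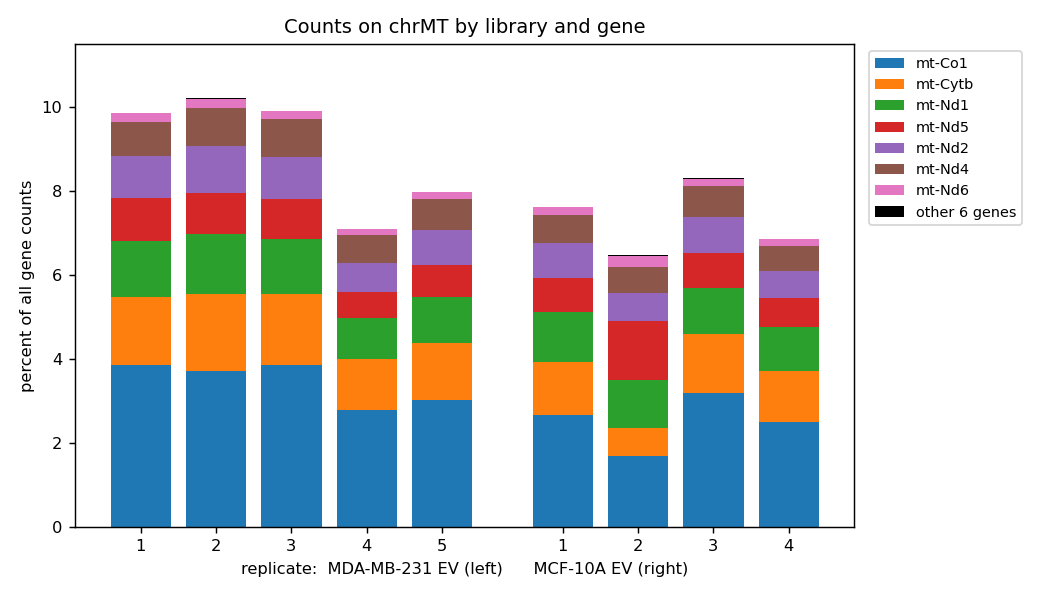
Percent of all gene counts on chrMT in each library (bars from 0), split by gene, with the 5 MDA-MB-231 EV libraries left and the 4 MCF-10A EV libraries right. MDA-MB-231 EV replicates 1 to 3 stand at 9.87% to 10.2%, above the rest at 6.46% to 8.30%, and the 6 genes drawn in black are barely visible.

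Within chrMT the genes fell into a group of 7 that carried nearly all counts and a group of 6 that carried almost none. Compared per length as deposited FPKM (counts per length of gene and per library total), mt-Co1, mt-Nd1, mt-Cytb, mt-Nd2, mt-Nd4, mt-Nd5 and mt-Nd6 lay between 2529 and 24957 FPKM over the 9 libraries. The other 6, mt-Co2, mt-Atp8, mt-Atp6, mt-Co3, mt-Nd3 and mt-Nd4l, lay between 2.17 and 92.8 FPKM, so that the lowest value among the 7 was 27.3 times the highest among the 6. These 6 genes together took 0.137% to 0.172% of the chrMT counts in MDA-MB-231 EV and 0.138% to 0.202% in MCF-10A EV. They lie next to each other on the mitochondrial map, between mt-Co1 and mt-Nd4, although mt-Co2 and mt-Co3 encode the partners of mt-Co1 in complex IV.

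The annotated chromosome 1 copies cover that stretch of the map, from part of mt-Co1 to part of mt-Nd4, apart from most of mt-Atp8. Of all 50-base windows, 100% in mt-Co2, 99.53% in mt-Atp6, 99.9% in mt-Co3, 97.99% in mt-Nd3 and 98.8% in mt-Nd4l occurred unchanged in another GENCODE transcript. The share was 62.2% in mt-Nd4 and 51.1% in mt-Co1, which are copied in part, 8.19% in mt-Nd2 and 7.61% in mt-Nd5. It was 0% in mt-Nd1, mt-Nd6, mt-Cytb and mt-Atp8. The chromosome 1 copy of mt-Co1, Gm29216, aligned over 483 of 1545 bases (31.3%), so not all shared windows of mt-Co1 lie in that copy. The windows were compared with annotated transcripts and not with the whole genome. Among the 6 genes of low level, mt-Atp8 alone had no window in an annotated copy. Its 43 bases shared with mt-Atp6 are shorter than a window. A copy of them in Gm10925, which matched mt-Atp6 over 678 bases, could therefore not show in this share. The chromosome 1 pseudogenes Gm28661, copying mt-Co2, and Gm10925, copying mt-Atp6, leave 233 bases between them, while the genes mt-Co2 and mt-Atp6 leave 230 bases, in which mt-Atp8 starts. Gm28661 aligned over 681 of the 684 bases of mt-Co2, so the gaps are not counted from matching bases. Both copies lie on the minus strand, and gene start plus copy end was 24622578 for each. The copies of mt-Co2 and mt-Atp6 thus start as far apart as the genes do. Whether those 233 bases copy mt-Atp8 was not analysed here.

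**Figure D3:**
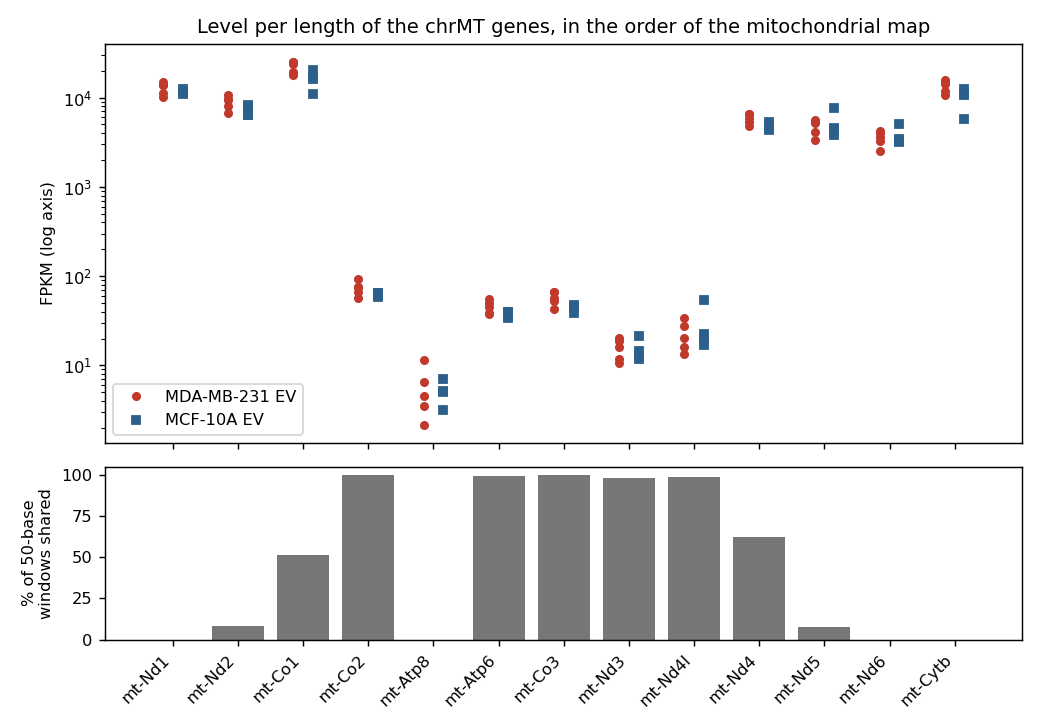
Upper panel: FPKM (log axis) of each chrMT gene in map order, 1 point per library, MDA-MB-231 EV left and MCF-10A EV right of each position. Lower panel: percent of each gene's 50-base windows found unchanged in another GENCODE M21 transcript. Of the 6 genes under 100 FPKM, 5 have 97.99% to 100% of their windows shared, and mt-Atp8 has 0%. The 43 bases that mt-Atp8 shares with mt-Atp6 are shorter than a window.

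Counts of mt-Nd4l, mt-Co2 and mt-Co3 were close to those of their chromosome 1 pseudogenes, counts of mt-Atp6 and mt-Nd3 were lower, and counts of mt-Co1 and mt-Nd4 were far higher. In MDA-MB-231 EV replicates 1 to 5 mt-Nd4l had 196, 199, 78, 93 and 124 counts and its copy Gm10222 had 193, 196, 94, 71 and 97. In MCF-10A EV replicates 1 to 4 mt-Nd4l had 119, 222, 127 and 130 counts and Gm10222 had 107, 226, 129 and 98. Both were highest for their depth in MCF-10A EV replicate 2. Over the 9 libraries the ratio of gene to copy ran from 0.830 to 1.33 for mt-Nd4l, from 0.807 to 1.05 for mt-Co2 against Gm28661 and from 0.771 to 0.916 for mt-Co3 against Gm28437. It ran from 0.416 to 0.543 for mt-Atp6 against Gm10925 and from 0.171 to 0.272 for mt-Nd3 against Gm28438. The genes copied only in part had far more counts than their copies, from 671 to 1251 times for mt-Co1 against Gm29216 and from 112 to 352 times for mt-Nd4 against Gm28439.

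For 5 of 7 pairs, counts of gene and copy varied together across libraries by Pearson r. Reads from identical stretches cannot be assigned by sequence, so this is not shown to be a relation of separate transcripts. The correlation of log2 CPM for mt-Nd4l and Gm10222 over 9 libraries had Pearson r = 0.95 (exact permutation p = 0.000438, adjusted p = 0.000767) and Spearman rho = 0.85 (exact permutation p = 0.00607, adjusted p = 0.0106). Without the libraries farthest from the median, MCF-10A EV 2 and MDA-MB-231 EV 3, r was 0.93 (n = 7, exact permutation p = 0.00417). Of 7 such pairs, compared after their counts had been seen, 5 passed a Benjamini-Hochberg adjusted exact permutation p under 0.05 for Pearson r. The exceptions were mt-Co1 (r = 0.66, n = 9, exact permutation adjusted p = 0.0620) and mt-Nd4 (r = 0.21, exact permutation adjusted p = 0.607). By Spearman, mt-Co1 passed over the 9 libraries (rho = 0.72, exact permutation adjusted p = 0.0430). Without its 2 farthest libraries mt-Co1 passed by r (0.89, n = 7, exact permutation adjusted p = 0.0222) and not by rho (0.75, exact permutation adjusted p = 0.0928). In contrast, mt-Nd3 no longer passed by r without its 2 farthest libraries (r = 0.48, n = 7, exact permutation adjusted p = 0.332). By Spearman, mt-Atp6 alone still passed without its 2 farthest libraries (rho = 0.96, n = 7, exact permutation adjusted p = 0.0194). There mt-Nd4l had rho = 0.82, and its exact permutation adjusted p was 0.0928, as for mt-Co2 and mt-Co3. How the counting treated reads that match several places is not given in the sources used here, so the levels of the 6 genes, and in part those of mt-Co1 and mt-Nd4, are uncertain.

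**Figure D4:**
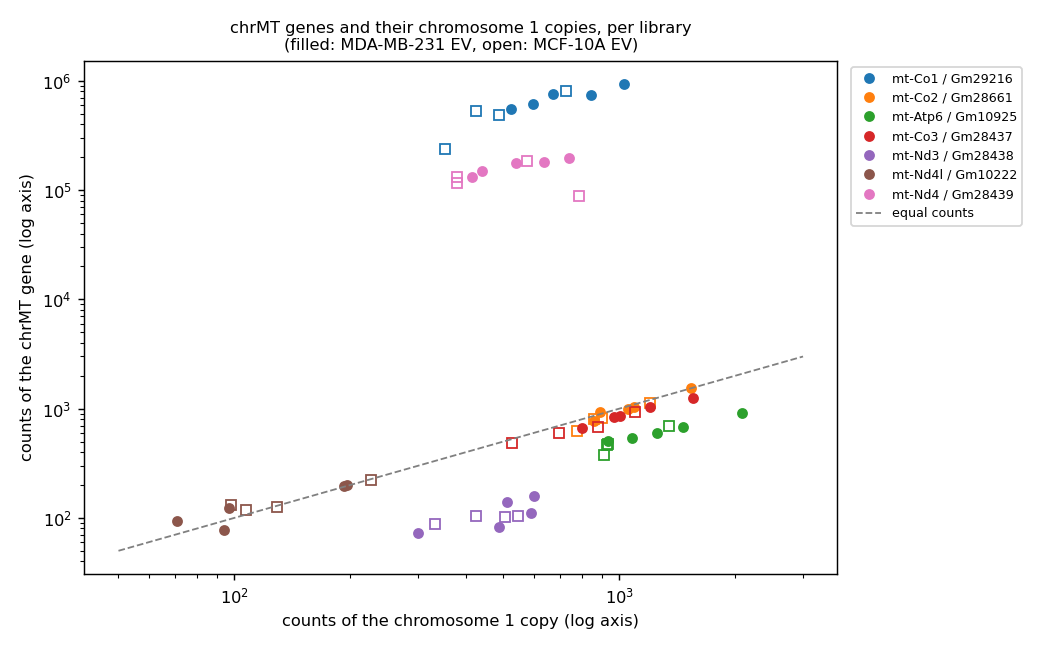
Counts of each chrMT gene against counts of its chromosome 1 copy (both log axes), 1 point per library, filled for MDA-MB-231 EV and open for MCF-10A EV, with a dashed line at equal counts. The 5 genes copied over nearly their whole length have 0.171 to 1.33 times the counts of their copies, and mt-Co1 and mt-Nd4, copied in part, have 112 to 1251 times.

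No mitochondrial gene passed the test between EV groups, and the values of the groups overlapped for all of them. In edgeR's quasi-likelihood test across 13901 genes, 0 of the 13 genes reached 0.05 after Benjamini-Hochberg adjustment, the lowest adjusted p being 0.419. This equals the background of 0% of all genes tested. At an unadjusted p under 0.05 the count was also 0 of 13, beside 12.8% of all genes (5.95% with a higher and 6.86% with a lower level in MDA-MB-231 EV). That count depended on the scaling. With unscaled libraries it was 4 of 13 (mt-Co1, mt-Co3, mt-Nd4 and mt-Atp6, each higher in MDA-MB-231 EV), beside 16.3% of all genes. In limma on log2(FPKM + 1) and log2(FPKM + 0.1) it was 3 of 13 (mt-Co1, mt-Co3 and mt-Nd4), beside 17.6% and 17.4%, and none passed after adjustment. In CPM scaled by TMM factors (edgeR's correction for library makeup) 0 of the 13 genes had groups that did not overlap, beside 5.40% of all genes (2.22% higher and 3.17% lower). DESeq2 passed 2.76% of the genes to which it gave an adjusted p, and 0 of the 10 mitochondrial genes to which it gave one. Fitted log2 fold changes, with MDA-MB-231 EV on top, were above 0 for 8 of the 13 genes, beside 53.1% of all genes tested, with a median of 0.094 beside 0.020 over all genes. With library sizes left unscaled the median of all genes was 0.15 and that of the 13 genes 0.23, so the distance between them was nearly the same.

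Complex IV is cytochrome c oxidase, which hands electrons to oxygen. Its genes mt-Co1 and mt-Co3 had some of the highest fold changes on chrMT, whereas mt-Co2 lay at the median of the 13 genes. The catalytic subunit gene mt-Co1 (ENSMUSG00000064351, chrMT:5328-6872) was at 37535, 34886, 37694, 26566 and 28617 CPM in the MDA-MB-231 EV libraries and at 29148, 18393, 32271 and 25511 CPM in MCF-10A EV. MDA-MB-231 EV replicates 1 to 3 lay above the whole of the other group, and the lowest value was that of MCF-10A EV replicate 2. Its mean level was 33060 ± 5166 CPM in MDA-MB-231 EV (SD, n = 5) and 26331 ± 5969 CPM in MCF-10A EV (SD, n = 4). The log2 fold change, with its SE, was 0.33 ± 0.18 (adjusted p = 0.449 in edgeR), or 0.19 when MCF-10A EV replicate 2 was left out. For mt-Co3 (ENSMUSG00000064358, chrMT:8607-9390), a structural subunit at the core of the enzyme, the values were 50.7, 48.4, 43.1, 32.5 and 39.4 CPM in MDA-MB-231 EV and 32.9, 37.4, 37.5 and 35.7 CPM in MCF-10A EV. Replicate 4 alone kept the MDA-MB-231 EV range from lying wholly above the other. The log2 fold change of mt-Co3 was 0.26 ± 0.13 (adjusted p = 0.419 in edgeR, the lowest on chrMT), and its copy Gm28437 had 0.26 ± 0.13. The copper-binding subunit gene mt-Co2 averaged 48.2 ± 9.12 CPM in MDA-MB-231 EV and 45.2 ± 2.46 CPM in MCF-10A EV, giving 0.094 ± 0.13 on the log2 scale.

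Complex III, which passes electrons to cytochrome c, takes 1 subunit from chrMT. Its gene mt-Cytb (ENSMUSG00000064370, chrMT:14145-15288), for cytochrome b, was at 15782, 17144, 16588, 11714 and 12986 CPM in the MDA-MB-231 EV libraries and at 14052, 7177, 14321 and 12396 CPM in MCF-10A EV. The groups overlapped, and MCF-10A EV replicate 2 was again lowest. Mean levels of 14843 ± 2370 CPM in MDA-MB-231 EV (SD, n = 5) and 11987 ± 3317 CPM in MCF-10A EV (SD, n = 4) gave 0.31 ± 0.20 on the log2 scale (adjusted p = 0.524 in edgeR), and 0.13 without that library.

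Complex I, which takes electrons from NADH, has 7 of its membrane subunits encoded on chrMT, and their fold changes went both ways. The gene mt-Nd5 (ENSMUSG00000064367, chrMT:11742-13565), for a proton-pumping subunit at the far end of the membrane arm, was at 10086, 9168, 9234, 5837 and 7171 CPM in the MDA-MB-231 EV libraries and at 8956, 15181, 8437 and 7014 CPM in MCF-10A EV. Only MCF-10A EV replicate 2 lay outside the range of the MDA-MB-231 EV libraries. Its log2 fold change was -0.25 ± 0.23 (adjusted p = 0.657 in edgeR) and turned to 0.028 without that library. The minus-strand gene mt-Nd6 (ENSMUSG00000064368, chrMT:13552-14070) was at 2048, 2073, 1816, 1254 and 1608 CPM in the MDA-MB-231 EV libraries and at 1975, 2839, 1727 and 1670 CPM in MCF-10A EV. As for mt-Nd5, MCF-10A EV replicate 2 was highest, and the log2 fold change of mt-Nd6 was -0.22 ± 0.19 (edgeR adjusted p = 0.636) with it, -0.026 without it and -0.12 without MDA-MB-231 EV replicate 4. Whether counting used strand is not stated, so reads of mt-Nd6 and antisense reads from the other strand cannot be told apart.

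The small subunit gene mt-Nd4l (ENSMUSG00000065947, chrMT:9877-10173) was at 7.90, 9.39, 3.92, 4.51 and 5.77 CPM in the MDA-MB-231 EV libraries and at 6.54, 17.2, 5.12 and 6.82 CPM in MCF-10A EV. Apart from MCF-10A EV replicate 2 every value lay within the MDA-MB-231 EV range, and the log2 fold change of -0.48 ± 0.37 (edgeR adjusted p = 0.609) turned to 0.040 without that library. Likewise mt-Nd3 had -0.096 ± 0.25 with all libraries and 0.12 without it. The complex I transcript with the highest FPKM in every library, mt-Nd1, averaged 11776 ± 1861 CPM in MDA-MB-231 EV and 11800 ± 1092 CPM in MCF-10A EV, or -0.0030 ± 0.14 on the log2 scale. The genes mt-Nd2 and mt-Nd4, for proton-pumping subunits, had log2 fold changes of 0.17 ± 0.16 and 0.16 ± 0.13, with a mean of 8899 ± 1582 CPM in MDA-MB-231 EV against 7901 ± 1122 CPM in MCF-10A EV for mt-Nd2. For mt-Nd4 the means were 7712 ± 1030 CPM in MDA-MB-231 EV and 6919 ± 649.8 CPM in MCF-10A EV. Without MCF-10A EV replicate 4 the log2 fold change was 0.10 for mt-Nd2 and 0.096 for mt-Nd4, and leaving out MDA-MB-231 EV replicate 2 gave 0.11 for mt-Nd2, and leaving out replicate 4 of that group gave 0.26.

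ATP synthase, or complex V, takes 2 subunits of its membrane part from chrMT. The proton-channel subunit gene mt-Atp6 was at 37.0, 31.9, 29.8, 24.7 and 25.2 CPM in the MDA-MB-231 EV libraries and at 25.4, 29.5, 27.7 and 25.0 CPM in MCF-10A EV. Its groups overlapped, and the log2 fold change was 0.15 ± 0.13 (adjusted p = 0.648 in edgeR), or 0.056 without MDA-MB-231 EV replicate 1. The accessory subunit gene mt-Atp8 had 32, 47, 18, 14 and 9 counts in MDA-MB-231 EV and 21, 9, 26 and 28 counts in MCF-10A EV. At these low counts its log2 fold change was 0.00060 ± 0.47, or -0.14 without MCF-10A EV replicate 2.

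**Figure D5:**
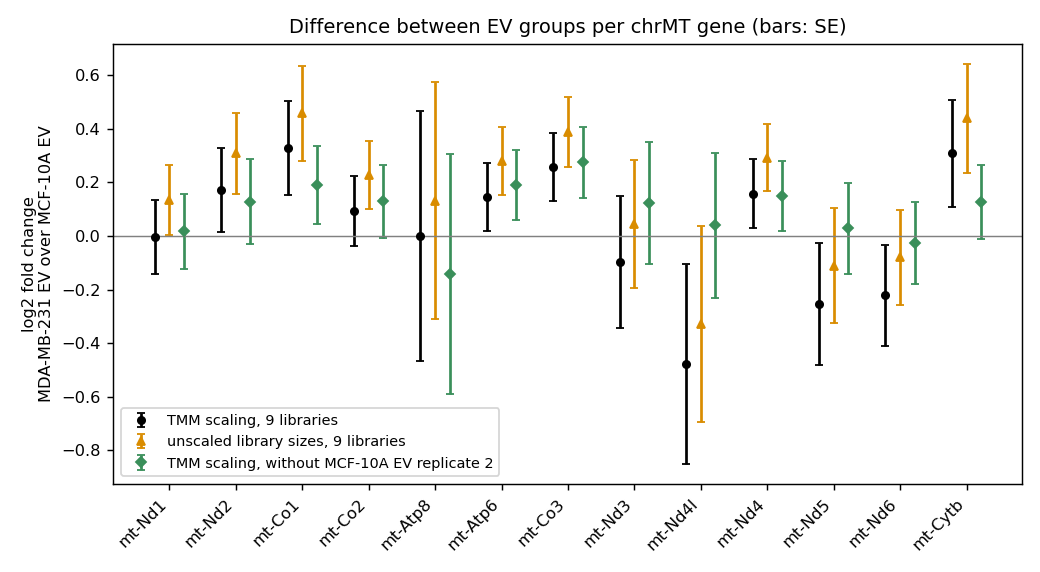
Log2 fold change (positive where MDA-MB-231 EV is higher, bars are SE) of each chrMT gene in map order under TMM scaling, with unscaled library sizes, and under TMM scaling without MCF-10A EV replicate 2. None of the 13 genes passed in any of these fits, and the values below 0 for mt-Nd4l, mt-Nd5 and mt-Nd3 turn above 0 without that library.

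Genes that share an mRNA or adjoin on the map were compared across libraries as log2 CPM, in 3 pairs. For mt-Nd5 and mt-Nd6, on opposite strands, Pearson r was 0.97 (n = 9, exact permutation p = 7.99e-05, adjusted p = 0.00024) and Spearman rho 0.90 (exact permutation p = 0.00203, adjusted p = 0.00608). Without MCF-10A EV 2 and MDA-MB-231 EV 4, the libraries farthest from the median, r was 0.87 (n = 7, exact permutation adjusted p = 0.0327) and rho 0.79 (exact permutation adjusted p = 0.144). As deviations from the group means r was 0.97 (exact permutation within groups, adjusted p = 0.00417). Reads on mt-Nd6 may include antisense reads from the other strand, since use of strand in counting is not stated. The relation of these counts is therefore not shown to be that of 2 separate transcripts. For mt-Atp8 and mt-Atp6, which share 1 mRNA, r was 0.43 and rho 0.43 (n = 9, exact permutation p = 0.247 and 0.250, adjusted p = 0.371 and 0.375), and r was 0.14 without MDA-MB-231 EV 5 and MDA-MB-231 EV 2 (n = 7, exact permutation p = 0.785). For mt-Nd4l and mt-Nd4, which also share 1 mRNA, r was -0.12 and rho -0.12 (n = 9, exact permutation p and adjusted p = 0.767 and 0.776), and r was 0.61 without MCF-10A EV 2 and MDA-MB-231 EV 3 (n = 7, exact permutation p = 0.146). Neither of these pairs was shown to vary together at this number of libraries, and the counts of mt-Atp8 and mt-Nd4l were low.

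Over all 78 pairs of the 13 genes, 68 had a positive r and 8 passed an exact permutation p adjusted over the 78 pairs, with a median r of 0.49 and a range from -0.60 to 0.97. The highest besides mt-Nd5 and mt-Nd6 was mt-Co1 with mt-Cytb (r = 0.96, rho = 0.93, n = 9, exact permutation p = 0.000141 and 0.00075, adjusted p for r = 0.00274), and the lowest was mt-Nd4l with mt-Cytb (r = -0.60, rho = -0.10, exact permutation p = 0.106 and 0.810, adjusted p for r = 0.224). Without MCF-10A EV replicate 2 all 78 pairs had a positive r, 36 passed and the median r was 0.74 (n = 8). The pairs share libraries and scaling factors, so they are not independent of each other.

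The nuclear genes that complete the same complexes did not pass the test in any list, which equals the background of 0% of all genes tested. The 79 nuclear subunits of complexes I to V were listed with earlier results of these data known. Of these, 57 had a log2 fold change above 0, beside 53.1% of all genes, and 0 passed. Their median was 0.084 beside 0.020 over all genes. Without MCF-10A EV replicate 2 these became 38 of 79, beside 52.7% of all genes, and a median of -0.0034. The direction of the list thus rests on that library. With all libraries, above 0 were 13 of 14 subunits of complex IV (median 0.21), 8 of 9 of complex III (0.11), 11 of 16 of complex V (0.10) and 21 of 36 of complex I (0.049). Without that library the median was 0.023 for complex IV and -0.039 for complex I. In complex II, which has no chrMT subunit, it was 4 of 4 (median 0.092). The complex IV subunits Cox8a and Cox6a1 had 0.44 ± 0.14 and 0.46 ± 0.19 (adjusted p = 0.292 and 0.346 in edgeR), and the complex I subunits Ndufs8 and Ndufv2 had 0.21 ± 0.10 and -0.16 ± 0.11. The mean log2 CPM of the 79 subunits was 7.71 to 8.002 in MDA-MB-231 EV and 7.32 to 8.01 in MCF-10A EV, where replicate 2 was lowest and replicate 4 highest, so its order over libraries was not that of the chrMT share.

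Genes that copy, transcribe and process mitochondrial DNA and RNA lay close to 0 as well. Of 52 tested, 22 had a log2 fold change above 0, beside 53.1% of all genes, 0 passed and the median was -0.044. An unadjusted p under 0.05 was found for 6 of the 52, a share near the 12.8% of all genes. With unscaled libraries 37 were above 0, where 74.1% of all genes were above 0 and their median was itself 0.15. Twnk, the helicase that unwinds mitochondrial DNA, had -0.34 ± 0.13, and the mitochondrial topoisomerase Top1mt had -0.30 ± 0.12 (edgeR adjusted p = 0.327 and 0.338). Mrm1, an rRNA methyltransferase, had 0.43 ± 0.18, the exonuclease Rexo2 -0.20 ± 0.088 and the pyrimidine carrier Slc25a36 -0.23 ± 0.091. Slirp, which stabilises mitochondrial mRNAs, had -0.46 ± 0.27. Among 12 nuclear activators of mitochondrial genes, 8 were above 0, beside 53.1% of all genes, and 0 passed. Yy1 had -0.26 ± 0.11 and the coactivator Ppargc1a (PGC-1 alpha) -0.50 ± 0.32, while Esrrb had 0.94 ± 0.55 and Esrrg 0.48 ± 0.50. Ppargc1a was at 57.8 CPM in MCF-10A EV replicate 2, above all other libraries. The other MCF-10A EV replicates had 17.4, 28.6 and 17.8 CPM, beside a mean of 21.4 CPM in MDA-MB-231 EV. No fold change of Ppargc1a without that library is given here.

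Markers of fibre type are given beside these values. The mean log2 CPM of 15 fast-fibre genes was 11.88 to 12.07 in MDA-MB-231 EV and 12.16 to 12.49 in MCF-10A EV, without overlap. Of these, 15 of 15 were below 0 and 0 passed, beside 46.9% of all genes below 0. In edgeR an unadjusted p under 0.05 was found for 10 of 15 fast-fibre and 2 of 15 slow-fibre genes, beside 12.8% of all genes. The mean log2 CPM of 15 slow-fibre genes was 6.46 to 8.19 in MDA-MB-231 EV and 4.498 to 7.57 in MCF-10A EV, where replicate 1 was lowest. Of these 15 slow-fibre genes, 15 were above 0 and 0 passed, beside 53.1% of all genes above 0. Their median of 0.51 was 0.13 without MCF-10A EV replicate 1. The MDA-MB-231 EV library with the lowest chrMT share, replicate 4, also had the lowest slow-fibre mean of its group, whereas in MCF-10A EV the lowest share was in replicate 2 and the lowest slow-fibre mean in replicate 1. The part of fibre type in the chrMT values was not tested.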

How the data were processed

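Counts per gene on the mm10 build are as the authors deposited them, from poly-T purified RNA, with 1 column per library. The deposited FPKM values equal count over gene length and total count within 0.1% for 100% of 161066 values. The submitters' processing notes list HTSeq 0.6.1, STAR 2.5, TopHat, edgeR and DESeq2 with no role given, and strand and multi-mapping settings are not given in the sources used here. All 9 libraries were fitted across 13901 genes with edgeR 4.0.16 (filterByExpr, minimum count 10, minimum total 15, TMM, robust quasi-likelihood F-test, group as the term, two-sided, Benjamini-Hochberg threshold 0.05) in R 4.3.3. The tests were checked on simulated counts. Log2 CPM used a prior count of 2. GENCODE M21 transcripts were aligned with BLAST 2.17.0 (word size 20, alignments of 100 bases or more). Correlations used two-sided exact permutation (SciPy 1.17.1). Figures used matplotlib 3.10.9. Gene symbols came from the gene ID for 34490 of 35275 IDs. All 13 chrMT genes passed the count filter and are named, and up to 4 members with the smallest p of each nuclear list. The members and lists were chosen with earlier results of these data known. A planned pair of rRNA genes was not run. Alternatives were RLE, upper-quartile, unscaled and nuclear-only scaling, other count filters (none, or CPM above 1 in 4 libraries), DESeq2 1.42.0, limma 3.58.1 voom, the replicate number as a block, leaving out each library, and limma on FPKM after adding 1 or 0.1 and taking log2. Summing each gene with its copy was added after seeing the data. P-values of the fits weigh a group difference against the spread between these libraries, estimated with information shared across genes. Those of the correlations are the share of permuted pairings with an absolute correlation at least as large.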

Additional observations from a re-analysis of the deposited data

Results flagged for a closer look

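In 60 groups of values examined for a sample far from the others, 5 were found, where chance gives about 1 in 20, or 3. Of these, 4 concerned MCF-10A EV replicate 2, far from the rest of its group: mt-Nd4l at 17.2 CPM, against 5.12 to 6.82 CPM in the others, mt-Nd5 at 21.7% of chrMT counts, against 10.0% to 10.7%, mt-Nd6 at 4.05%, against 2.05% to 2.38%, and mt-Cytb at 10.2%, against 16.8% to 17.7%. The remaining one was the slow-fibre list in MCF-10A EV replicate 1, with a mean log2 CPM of 4.498, against 7.19 to 7.57 in the others of its group.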

How the results depend on the processing

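The 13 chrMT genes gave 0 calls under every fit run, the 9 that leave out a library included. Over all genes DESeq2 called 217, and leaving out 1 library gave 0 to 2 calls, the 2 without MCF-10A EV replicate 4. The cause was not tested. Log2 fold changes near 0 changed sign. For mt-Nd1 it was 0.022 with upper-quartile factors, 0.14 unscaled, 0.00040 with nuclear-only scaling, 0.0057 with no filter, 0.0019 with CPM above 1 in 4 libraries, 0.12 with limma on either log2(FPKM + 1) or log2(FPKM + 0.1), 0.032 with the replicate block, and -0.052 to 0.073 without each library in turn. For mt-Atp8 it was -0.0067 with RLE factors, -0.0052 in DESeq2, -0.19 in voom, -0.0011 and -0.026 in limma on log2(FPKM + 1) and log2(FPKM + 0.1), and -0.40 to 0.21 without each library. For mt-Nd3 it was 0.045 unscaled, 0.024 and 0.025 in limma with these pseudocounts, and -0.22 to 0.12 without each library. Leaving out each library gave -0.011 to 0.18 for mt-Co2, -0.68 to 0.040 for mt-Nd4l and -0.39 to 0.028 for mt-Nd5. The correlation of mt-Nd4l and mt-Nd4 was 0.32 relative to the chrMT sum, 0.031 as deviations from group means, 0.61 without the 2 farthest libraries and -0.30 to 0.19 without each library. Genes of mtDNA expression above 0 numbered 37 unscaled and 36 and 37 in limma on log2(FPKM + 1) and log2(FPKM + 0.1), and 22 with TMM. Of all genes, 74.1%, 75.2% and 75.6% were above 0 in these fits in turn, and 53.1% with TMM. Same-numbered libraries of the groups had deviations correlated from -0.30 to 0.080. These values did not show a pairing by number and cannot exclude one, and the replicate block gave 0 calls. Nuclear respiratory subunits above 0 numbered 38 to 70 without each library, the 38 without MCF-10A EV replicate 2. Depth limits mt-Atp8, at 9 to 47 counts.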
